A study of Homo sapiens with 16 samples.

Results

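The ADAM, ADAMTS and MMP genes encode 3 related families of zinc-dependent proteases that cut extracellular matrix and cell-surface proteins. Members were the protein-coding genes whose symbol is ADAM, ADAMTS or MMP followed by a number, with an optional final letter, which gave 62 of the 19970 protein-coding genes of the hg38 gene table: 20 ADAM, 19 ADAMTS and 23 MMP genes. Open chromatin around them was read from NicE-seq peak lists of U87 cells, an established human glioblastoma line. NicE-seq nicks accessible DNA with an enzyme, fills the nicks with biotinylated nucleotides, and captures and sequences the tagged fragments. The 16 libraries fall into 4 groups of 4: vehicle (DMSO), belinostat with its labels' 1 µM for 24 h, AsiDNA with DMSO, and AsiDNA with belinostat, called the combination here. Belinostat inhibits histone deacetylases, and AsiDNA is a short double-stranded DNA that mimics a broken end and engages DNA repair. The labels give no dose for AsiDNA, and their protocol text names MTU87 and LTAU87 cells where the sample fields name U87, so the form of AsiDNA exposure is not settled here. The design text asks whether the drugs alter accessibility, and each group is represented by 1 peak list for its 4 libraries. No spread between replicates can therefore be given, no test was possible, and every interval below is a Wilson 95% interval of a share that covers counting error only. Nothing in the labels says whether the libraries of a group came from separate cultures, and read depth is unknown.

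The ADAMs are mostly anchored in the membrane and shed the outer parts of growth factors, cytokines and receptors, although several have lost the catalytic site and act in adhesion. The ADAMTS enzymes are secreted, bind the matrix through thrombospondin repeats, and cut proteoglycans, procollagens and other large matrix proteins. The MMPs are made as inactive proenzymes, and TIMP proteins block them. In glioblastoma these enzymes are known for their part in invasion through brain matrix, with MMP2, MMP9 and MMP14 the most studied.

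On chromosomes 1 to 22 and X the peaks numbered 130318 in the vehicle list, 138937 in the belinostat list, 138273 in the AsiDNA list and 134865 in the combination list. A peak at a gene end, meaning no more than 1000 bp from the lower or upper end of the gene, was present in all 4 lists at 10 of 11 glial and mesenchymal glioma genes, with GFAP the exception. Among markers of other cell types this held for 3 of 4 neuronal, 3 of 5 haematopoietic, 1 of 3 epithelial and 0 of 3 endothelial genes. It also held for 64.1% of all protein-coding genes, so these short lists say little on cell identity. CDKN2A, CDKN2B and MTAP, a locus known to be homozygously deleted in U87 cells, had 0 regions in their windows in any list.

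The sequences below are the 250 bases before the annotated start of 7 members, from RefSeq promoters (GRCh38.p14), 5′ to 3′ on the gene's strand. They were available for 36 of the 62 members and 15811 of all protein-coding genes. Capitals mark 3 motifs searched on both strands. TGANTCA is the site of AP-1 factors, TATAAA is a core promoter element, and GGGCGG is the site of SP factors. A match on the opposite strand is shown as its reverse complement. The first set holds the 3 members whose start window had a peak in some lists and not in others. These are MMP11 (chr22:23772599-23772848, plus strand), ADAM8 (chr10:133276869-133277118, minus strand) and ADAMTS10 (chr19:8610716-8610965, minus strand), of which ADAM8 and ADAMTS10 were picked after their values were seen.
MMP11: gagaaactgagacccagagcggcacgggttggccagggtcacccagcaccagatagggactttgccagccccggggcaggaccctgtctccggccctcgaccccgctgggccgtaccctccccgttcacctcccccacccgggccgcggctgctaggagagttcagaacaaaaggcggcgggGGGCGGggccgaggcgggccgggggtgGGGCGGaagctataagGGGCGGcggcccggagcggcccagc
ADAM8: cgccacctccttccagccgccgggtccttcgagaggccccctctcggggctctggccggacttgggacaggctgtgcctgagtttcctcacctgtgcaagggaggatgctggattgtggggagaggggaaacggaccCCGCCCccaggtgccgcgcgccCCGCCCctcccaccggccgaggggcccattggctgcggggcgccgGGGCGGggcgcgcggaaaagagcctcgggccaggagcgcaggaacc
ADAMTS10: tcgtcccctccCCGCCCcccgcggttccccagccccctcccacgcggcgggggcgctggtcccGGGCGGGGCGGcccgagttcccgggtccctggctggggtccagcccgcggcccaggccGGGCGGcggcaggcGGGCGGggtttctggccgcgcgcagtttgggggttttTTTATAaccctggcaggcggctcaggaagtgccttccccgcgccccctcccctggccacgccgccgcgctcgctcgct
All 3 were rich in G and C (73.2%, 73.6% and 78.4%) and held 3, 3 and 5 matches to GGGCGG. ADAMTS10 also held TATAAA, its first base 78 bases before the start.

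The second set comes from the MMP gene cluster of chromosome 11, where every promoter shown was poor in G and C, between 32.8% and 36.4%. The starts of MMP7 (chr11:102530748-102530997) and MMP10 (chr11:102780629-102780878) carried a peak in all 4 lists. Those of MMP8 (chr11:102724955-102725204) and MMP27 (chr11:102705770-102706019) carried none in any list, and all 4 genes lie on the minus strand.
MMP7: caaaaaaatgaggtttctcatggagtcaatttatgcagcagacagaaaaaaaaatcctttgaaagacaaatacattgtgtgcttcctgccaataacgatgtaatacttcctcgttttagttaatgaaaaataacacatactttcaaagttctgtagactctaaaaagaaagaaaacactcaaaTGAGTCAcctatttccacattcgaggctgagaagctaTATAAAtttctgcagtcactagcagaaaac
MMP10: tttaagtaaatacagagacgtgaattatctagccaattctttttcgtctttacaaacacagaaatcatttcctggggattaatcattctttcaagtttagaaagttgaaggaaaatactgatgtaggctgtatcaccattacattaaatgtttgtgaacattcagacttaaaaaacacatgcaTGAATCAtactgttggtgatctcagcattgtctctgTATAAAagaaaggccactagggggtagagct
MMP8: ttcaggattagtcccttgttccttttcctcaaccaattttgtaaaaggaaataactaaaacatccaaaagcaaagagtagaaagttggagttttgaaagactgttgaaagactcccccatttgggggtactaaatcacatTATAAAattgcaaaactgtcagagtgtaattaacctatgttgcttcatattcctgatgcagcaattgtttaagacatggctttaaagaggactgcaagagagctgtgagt
MMP27: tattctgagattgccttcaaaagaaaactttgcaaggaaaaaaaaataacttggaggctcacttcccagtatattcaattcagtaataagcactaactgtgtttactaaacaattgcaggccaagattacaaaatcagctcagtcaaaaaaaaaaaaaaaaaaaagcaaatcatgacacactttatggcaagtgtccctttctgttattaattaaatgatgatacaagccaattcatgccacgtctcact
MMP7 and MMP10, the members open at the start, each held TGANTCA with its first base 67 bases before the start, and a TATAAA 30 and 31 bases before it. MMP8 held only TATAAA, 110 bases before the start, and MMP27 held none of the 3 motifs. MMP20, of the same cluster and also with no start peak in any list, held both TGANTCA and TATAAA, 112 and 72 bases before the start, so these motifs do not separate open from closed starts in the cluster. A match is a description of the letters, and its absence says nothing about a factor.

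Over the 36 members with a promoter entry, TGANTCA was found in 4 (11.1%) against 5.05% of all such genes, TATAAA in 7 (19.4%, against 9.25%) and GGGCGG in 23 (63.9%, against 56.0%). The 4 with TGANTCA were MMP7, MMP10, MMP20 and ADAMTS12. Only MMP7 held the AP-1 form TGAGTCA, and the others held TGAATCA. The start was open in all lists at MMP7, MMP10 and ADAMTS12 and in no list at MMP20, the enamel protease. Median G and C content was 73.6% at the 17 starts open in all lists and 55% at the 16 open in none, and over all genes these medians were 64.8% and 55.2%.

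Gene ends differed little between the lists. A peak was counted for a member even where it lay beyond the gene, and such a peak can belong to a neighbouring gene. A peak lay at a gene end in all 4 lists for 34 of the 62 members (54.8%, 42.5 to 66.6), against 64.1% of all protein-coding genes, and in none for 24 (38.7%, 27.6 to 51.2), against 27.4%. Only 4 members had one in some but not all lists (6.45%, 2.54 to 15.4), against a background of 8.47%, so the share near the background is no result about these genes. Each list alone had an end peak at 35 (vehicle), 35 (belinostat), 38 (AsiDNA) and 36 (combination) members. These are 56.5%, 56.5%, 61.3% and 58.1% of members, against 67.4%, 68.6%, 68.5% and 67.9% of all protein-coding genes. By family, all lists, no list and some lists were counted at 11, 9 and 0 ADAM genes, 10, 7 and 2 ADAMTS genes, and 13, 8 and 2 MMP genes. The 4 that differed were ADAMTS8, ADAMTS9, MMP11 and MMP25. No member had the pattern of belinostat and combination without vehicle and AsiDNA, which 0.881% of all genes had.

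**Figure D1:**
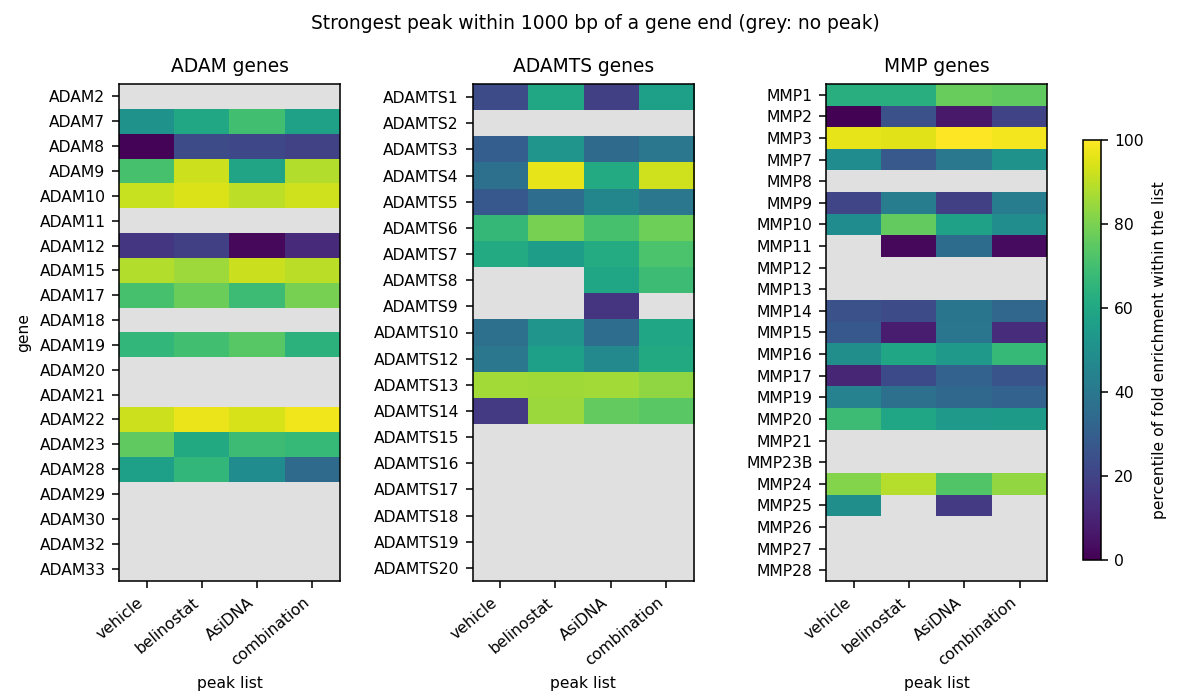
Each row is a gene and each column a peak list; colour gives the within-list percentile (0 to 100) of the fold enrichment of the strongest peak within 1000 bp of a gene end, and grey means no peak. Most rows are coloured or grey across all 4 columns; ADAMTS8, ADAMTS9, MMP11 and MMP25 are the 4 mixed rows.

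For the peaks that follow, the authors' fold enrichment is the peak's own ratio over local background, given in the order vehicle, belinostat, AsiDNA, combination. It ranks peaks within a list and is not a level comparable between lists. The percentile of a peak is its rank by fold among the peaks of its own list. A rank also depends on how long the list is and on what else it holds, so neither a fold nor a percentile that differs between lists is read as a change.

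Among the collagenases, which cut fibrillar collagen, MMP1 was open at an end in all lists, with folds of 6.86, 7.50, 8.87 and 9.80. MMP8 (neutrophil collagenase) and MMP13 had no end peak in any list. Both gelatinases, which degrade denatured collagen and basement membrane collagen, had an end peak in all lists. At MMP2 its folds were 2.45, 4.19, 3.09 and 4.12, and in the vehicle list it was at percentile 0.730, among the weakest peaks of that list. At MMP9 they were 3.94, 5.39, 3.87 and 5.63. The stromelysin MMP3, which cuts many matrix proteins and activates other MMPs, had the strongest end of the MMPs, with folds of 13.2, 15.6, 19.1 and 18.0 and percentiles of 95.6 or more in every list. The end of MMP10, a close relative of MMP3, had folds of 5.68, 9.50, 6.54 and 6.23.

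MMP11, stromelysin-3, is activated by furin inside the cell. Its start carried a peak in belinostat, AsiDNA and combination (folds 2.72, 4.85 and 2.83), and the nearest vehicle peak was 1623 bp away. The belinostat and combination peaks were near the bottom of their lists, at percentiles 2.08 and 2.81, and the AsiDNA peak was at 35.3. This pattern, all but vehicle, was seen at 0.951% of all genes. With −log10 q of at least 5 required, MMP11 kept its AsiDNA peak alone.

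The matrilysin MMP7 had an end peak in all lists (folds 5.68, 4.40, 5.14 and 6.46), and MMP26 in none. Of the 6 membrane-type MMPs, which work at the cell surface, 5 were open in all lists. MMP14, the activator of MMP2, had start peaks with folds of 4.14, 4.15, 5.09 and 4.89. MMP24 had the strongest end of this group, downstream of the gene, with folds of 9.11, 12.7, 8.29 and 11.6, and a weaker one at the start with 6.04, 3.59, 6.61 and 5.10. MMP16 had folds of 5.69, 7.03, 6.21 and 8.38, and the strongest end peaks of MMP15 and MMP17 lay at lower percentiles, from 7.76 to 39.2 at MMP15 and from 10.6 to 31.3 at MMP17.

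MMP25, a membrane-type MMP held by a lipid anchor, had an end peak in vehicle and AsiDNA only (0.776% of all genes), but at opposite ends. In vehicle a peak of fold 5.73 lay 986 bp from the upper end, and the peaks of the other lists there lay 1031, 1133 and 1027 bp away, just outside the window. In AsiDNA a peak of fold 3.74 lay 794 bp from the lower end. Counted by merged regions, MMP25 was open in all lists. Of the other 7 MMPs, MMP19 (folds 5.37, 5.03, 4.70 and 4.84) and MMP20 (7.46, 7.08, 6.28 and 6.76) were open in all lists, and MMP12, MMP21, MMP23B, MMP27 and MMP28 in none. MMP20 was open at its 3′ end and not at its start.

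The hyalectanases, which cut aggrecan and related proteoglycans, held both ADAMTS genes whose pattern differed with both ends counted together. ADAMTS8 had a peak at its lower end in AsiDNA and combination (folds 6.73 and 8.63), 985 and 983 bp from the end, and the vehicle and belinostat peaks lay 1048 and 1032 bp away. All 4 peaks belonged to 1 merged region, so the difference is one of peak borders at the edge of the window. The pattern was seen at 0.27% of all genes. ADAMTS9, which also cuts versican, had a peak in AsiDNA only, 383 bp from its lower end, with fold 3.67 and percentile 15.5. The nearest peaks of the other lists lay 3245, 3335 and 3399 bp away, and the AsiDNA-only pattern held for 1.03% of all genes. Requiring −log10 q of at least 5 removed it.

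Of the remaining hyalectanases, ADAMTS1, ADAMTS4 and ADAMTS5 were open at an end in all lists, and ADAMTS15 and ADAMTS20 in none. ADAMTS4 (aggrecanase-1) had folds of 4.86, 6.95, 4.23 and 5.83 at its upper end, and ADAMTS5 (aggrecanase-2) had 4.27, 4.93, 5.59 and 5.40. ADAMTS1 had 4.02, 7.16, 3.87 and 7.02 at its lower end. Among the procollagen N-propeptidases, which trim fibrillar procollagens, ADAMTS3 was open in all lists (4.47, 6.31, 4.79 and 5.39) and so was ADAMTS14, while ADAMTS2 had no end peak in any list. The start of ADAMTS14 lies in a merged region with weak peaks in all lists, at folds of 3.73, 3.63, 3.81 and 3.79. Another merged region, further inside the gene, had peaks in all lists at folds of 8.56, 11.5, 8.75 and 9.57. Its vehicle peak lay more than 1000 bp from the start. The strongest peaks within 1000 bp therefore had folds of 3.73, 11.5, 8.75 and 9.57.

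ADAMTS7 and ADAMTS12, which cut cartilage oligomeric matrix protein, were both open at the start in all lists, with folds of 6.65, 6.68, 6.98 and 9.06 for ADAMTS7. At ADAMTS12 they were 4.98, 6.74, 5.62 and 7.53. ADAMTS13, the von Willebrand factor protease, was open at its 3′ end (9.99, 11.7, 10.5 and 11.5), in peaks that lay just beyond the gene. Its start had no peak in any list. Of the other 6 ADAMTS genes, ADAMTS6 (7.25, 10.2, 8.02 and 10.3) and ADAMTS10 (4.87, 6.27, 4.88 and 7.35, at its 3′ end), both tied to fibrillin microfibrils, were open in all lists. ADAMTS16, ADAMTS17, ADAMTS18 and ADAMTS19 had no end peak in any list.

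With both ends of a gene counted together, no ADAM gene had a pattern that differed between lists, although single ends of ADAM8, ADAM17 and ADAM19 did, as given below. For ADAM8 and ADAM12 this rests on weak peaks. The vehicle end peak of ADAM8 was at percentile 1.02 with −log10 q 3.95, and the AsiDNA start peak of ADAM12 had −log10 q 4.59. With −log10 q of at least 5 required, ADAM8 was open in all but vehicle and ADAM12 in all but AsiDNA. Of the 12 ADAMs with a proteolytic active site, 8 were open at an end in all lists and 4 in none, as the genes are grouped from general knowledge. ADAM10, which cuts NOTCH receptors and the amyloid precursor protein, had start peaks with folds of 11.3, 15.1, 11.5 and 14.4. At ADAM17, which releases TNF and ligands of the EGF receptor, they were 7.68, 9.79, 7.74 and 10.5. ADAM15, known from cell adhesion, had 10.5, 11.6, 12.2 and 13.2 at its 3′ end, in peaks that lay beyond the gene. The start peaks of ADAM15 were weaker, with folds of 4.31, 6.80, 5.82 and 6.44. ADAM9, also a sheddase, had 7.69, 13.9, 6.64 and 12.9, and ADAM12 had a weak start peak with 3.64, 3.89, 2.74 and 3.57.

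Of the 8 ADAMs without an active site, 3 were open in all lists. ADAM22 and ADAM23 are neuronal receptors of LGI proteins, and ADAM22 had start peaks with folds of 11.6, 16.8, 13.0 and 17.4. ADAM23 had 8.29, 7.21, 7.72 and 8.37. ADAM7, known from the epididymis, had 5.83, 7.15, 7.93 and 7.11. The 9 ADAMs with no end peak in any list include ADAM2, ADAM18, ADAM20, ADAM21, ADAM29 and ADAM30, which are known from testis. The others were ADAM11, ADAM32 and ADAM33.

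When the 124 single ends were counted one by one, a setting added after the data were seen, 38 had a peak in all lists (30.6%, against 36.3% of all single ends) and 72 in none (58.1%, against 55.9%). Another 14 had one in some lists (11.3%, 6.85 to 18.1), against 7.82%. The most frequent of these patterns was all but vehicle, at 6 ends (4.84%, 2.24 to 10.2), against 0.801% of all single ends. Its interval takes no account of its being singled out as the most frequent. With both ends of a gene counted together, 1 of 62 members had this pattern (1.61%, background 0.951%). The 6 ends belonged to ADAM17, ADAM19, ADAMTS4, ADAMTS7, MMP3 and MMP11, and only that of MMP11 is a known start. ADAMTS4 and MMP3 had no promoter entry, so whether their lower ends are starts was not determined. With 1 list per group, treatment and sampling of the vehicle list cannot be told apart here.

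The distances differ between these 6 ends. At MMP3 the peak (folds 8.11, 6.31 and 6.46) lay 573, 518 and 557 bp from the lower end, and the nearest vehicle peak 7614 bp away. At the 3′ end of ADAM17 the folds were 4.64, 4.59 and 3.92, and the vehicle list had its nearest peak 3410 bp away. At the 3′ end of ADAM19, a sheddase of neuregulin, they were 4.61, 6.24 and 4.31, with the vehicle peak at 1812 bp. For ADAMTS4 the peak (16.0, 6.95 and 14.4) lay 970, 926 and 932 bp from the lower end and the vehicle peak 1166 bp away, in the same merged region. At ADAMTS7 the distances were 843, 939 and 848 bp, with 1668 bp in vehicle. None of the 6 patterns held under every setting tried. Within 500 bp ADAMTS4, ADAMTS7 and MMP3 had a peak in no list and ADAM17 in belinostat and AsiDNA only, and within 2000 bp ADAM19, ADAMTS4, ADAMTS7 and MMP11 had one in all lists.

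Over the 36 starts, 17 were open in all lists (47.2%, 32.0 to 63.0, against 63% of all starts with an entry), 16 in none (44.4%, against 30.5%) and 3 in some (8.33%, against 6.43%). ADAM8, an ADAM of leukocytes that is also found in tumours, had a start peak in belinostat only, 816 bp from the start with fold 4.11. The combination had one 1511 bp away, and the nearest vehicle and AsiDNA peaks were 14593 and 14629 bp away. ADAMTS10 had start peaks in belinostat and combination (folds 3.91 and 3.19), 997 and 969 bp away, where the AsiDNA peak lay at 1358 bp and the vehicle peak at 3473 bp. Neither start was open in vehicle or AsiDNA, but both calls rest on peaks near the 1000 bp limit. Within 2000 bp, ADAM8 had a peak in belinostat and combination, and ADAMTS10 in all but vehicle.

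The windows, each a gene with 10 kb on either side, covered 7.06 Mb. They held 424 vehicle, 440 belinostat, 439 AsiDNA and 429 combination peaks, or 60.1, 62.4, 62.2 and 60.8 per Mb, against 55.0, 59.3, 58.4 and 57.5 per Mb over the windows of all protein-coding genes. Peaks of the 4 lists that overlapped by at least 1 bp were merged, which gave 578 regions in the member windows, 5 of them shared by neighbouring members. All 4 lists had a peak in 303 (52.4%, 48.3 to 56.5), against 54.5% of the 112522 regions in all gene windows. The other 275 (47.6%) compare with a background of 45.5%, a similar share.

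Regions were unevenly spread over the genes. ADAMTS12 had the most, with 51, of which 27 were in all lists. ADAM12, a sheddase of heparin-binding EGF, had 38, of which 31 were in all lists, and ADAMTS2 had 31, of which only 11 were. ADAMTS17 had 30 and ADAMTS16 had 27. Rank correlation of region number with window length was 0.48 over the 62 members and 0.62 over all genes, a description with no test. ADAM2, ADAM18, ADAMTS19 and MMP23B had no region in any list. The median was 9.86 regions per 100 kb for members and 9.18 for all genes, and by family it was 5.67 for ADAM, 12.1 for ADAMTS and 14.5 for MMP genes.

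**Figure D2:**
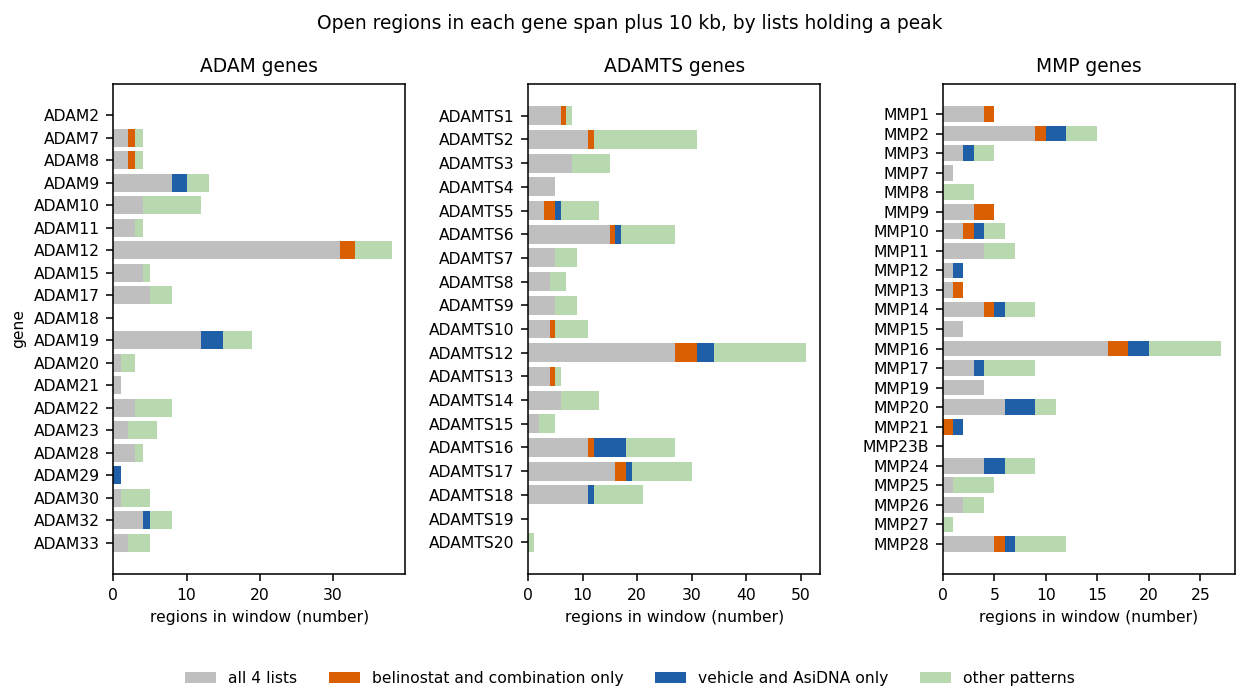
Bars give the number of merged open regions in each gene span plus 10 kb, stacked by the lists that hold a peak; grey is all 4 lists, orange belinostat and combination only, blue vehicle and AsiDNA only, green any other pattern. ADAMTS12 has the longest bar, 51 regions, and ADAMTS16 has the longest blue segment, 6 regions.

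The strongest regions were shared by all lists. A region inside both the ADAM9 and ADAM32 windows (chr8:39112787-39113545) had folds of 17.2, 20.1, 18.1 and 20.9. Inside ADAMTS12, chr5:33781225-33781778 had 20.7, 22.8, 17.4 and 21.8. Another, inside ADAMTS18 (chr16:77359003-77359578), had 16.7, 20.0, 17.7 and 19.2, although ADAMTS18 had no peak at either end. Of the 303 shared regions, 29 (9.57%) were at percentile 90 or above in every list, against 6.98% of shared regions in all gene windows. ADAM12, ADAMTS12 and ADAMTS18 held 4 of these each and ADAMTS6 held 3.

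A peak in belinostat and combination without vehicle and AsiDNA marks a region gained with belinostat on both AsiDNA backgrounds, and the reverse marks a loss. In the member windows 28 regions were gained in this sense (4.84%, 3.37 to 6.91), against 6.27% in all gene windows, and 35 were lost (6.06%, 4.39 to 8.31), against 4.86%. Over all genes gains outnumbered losses, and over the members losses outnumbered gains. The order among the members turned when −log10 q of at least 5 was required, which left 33 gained and 28 lost. Over all genes it turned at percentile 50 or more, with 515 gained and 550 lost. Both member shares have intervals that include the background.

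Gained and lost regions were also counted by family. ADAM windows had 4 gained (2.72%, 1.06 to 6.79) and 7 lost (4.76%, 2.33 to 9.50) of 147 regions. ADAMTS windows had 14 gained (4.84%, 2.91 to 7.97) and 13 lost (4.50%, 2.65 to 7.54) of 289. These intervals include the backgrounds of 6.27% gained and 4.86% lost. MMP windows had 10 gained (7.04%, 3.87 to 12.5) and 15 lost of 142 (10.6%, 6.51 to 16.7), the lost share being above the background of 4.86%. Its interval covers counting error only and takes no account of MMP having the highest lost share of the families. In the chromosome 11 cluster lay 5 of the 15. With −log10 q of at least 5 the MMP counts were 12 and 14, and with summits within 250 bp joined they were 13 and 16. Of the 15, 1 had percentiles of 50 or more in both lists. The families were not compared by a test.

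**Figure D3:**
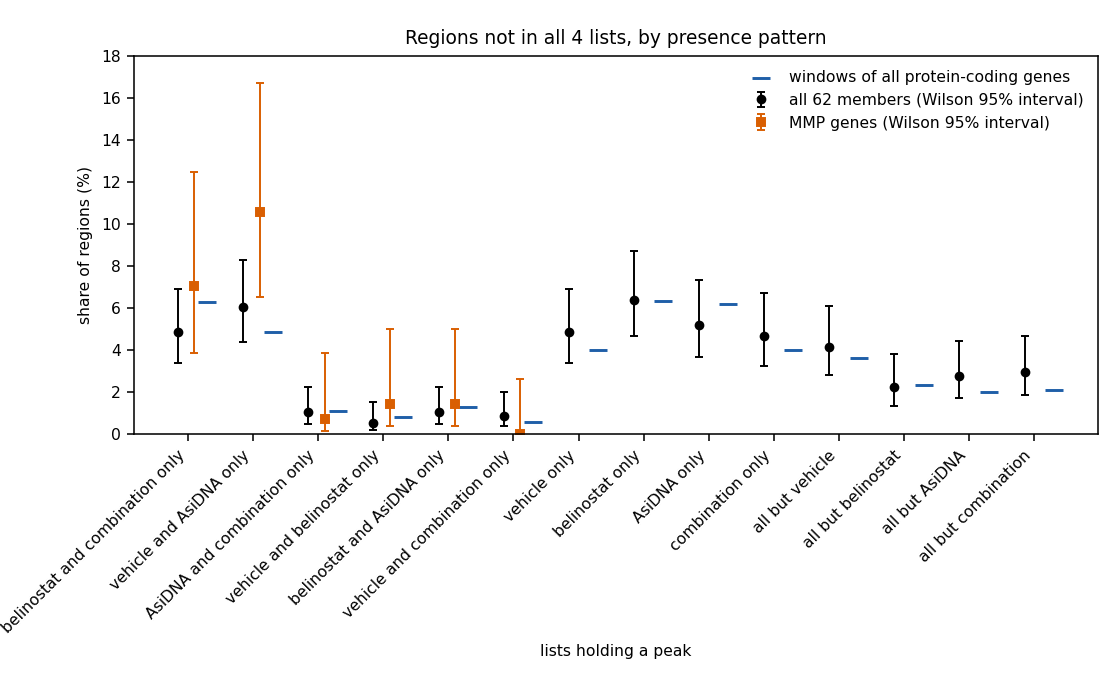
Points give the share of window regions (%) with each presence pattern that is not all 4 lists, for all 62 members (black) and, for the 6 patterns of 2 lists, MMP genes (orange), with Wilson 95% intervals; blue bars give the windows of all protein-coding genes. The MMP share of vehicle and AsiDNA only, 10.6%, is the orange point farthest above its blue bar, 4.86%.

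A gained region was present at 21 of 62 members (33.9%, background 28.8%) and a lost one at 21 (33.9%, background 21.2%), and 11 had both (17.7%, against 9.11%). Members are longer genes than most, with a median of 46.8 kb against 24.2 kb, and these shares are not adjusted for length. For the MMPs, 9 of 23 had a gain and 11 had a loss. MMP20 had 3 losses, and MMP2, MMP16 and MMP24 had 2 each. Gains were found at MMP1, MMP2, MMP9, MMP10, MMP13, MMP14, MMP16, MMP21 and MMP28. MMP9 had 2, of folds 4.68 and 3.86 (belinostat and combination) within the gene and 2.23 and 2.32 beyond it.

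Most of these regions were weak. In both lists holding it, a peak at percentile 50 or more was found at 1 of the 28 gained and 5 of the 35 lost regions, shares of 3.57% and 14.3% against 7.30% and 10.1% in all gene windows. The gained one lies in ADAMTS16 (chr5:5158476-5158814), with folds of 6.40 in belinostat and 8.11 in the combination. The strongest lost region lies in ADAMTS18 (chr16:77336559-77337046), with folds of 9.51 in vehicle and 11.3 in AsiDNA. One upstream of MMP21 (chr10:125782473-125783010), a gene known from left-right patterning, had 7.20 and 7.48. The other 3 were chr5:5288330-5288601 (6.25 and 6.54) and chr5:5179090-5179458 (6.32 and 6.20) in ADAMTS16, and chr5:33794666-33795085 (6.10 and 6.42) in ADAMTS12. Next in rank among the gained were chr5:33761168-33761577 in ADAMTS12 (9.92 and 5.27) and chr10:126186805-126187088 in ADAM12 (5.10 and 5.26).

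ADAMTS16, a metalloprotease known from kidney and blood pressure genetics, had the most lost regions of any member, 6, beside 1 gained region and 11 shared by all lists. The lost regions had vehicle folds between 3.23 and 6.32, and no peak of belinostat or combination overlapped them. Those at chr5:5179090-5179458 and chr5:5272006-5272338 lay 139 and 156 bp from another region, the first beside one of belinostat only (chr5:5179598-5179796) and the second beside one in all lists (chr5:5271029-5271849). The gained region lay 3385 bp from its nearest neighbour. The gene had no peak at either end in any list.

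**Figure D4:**
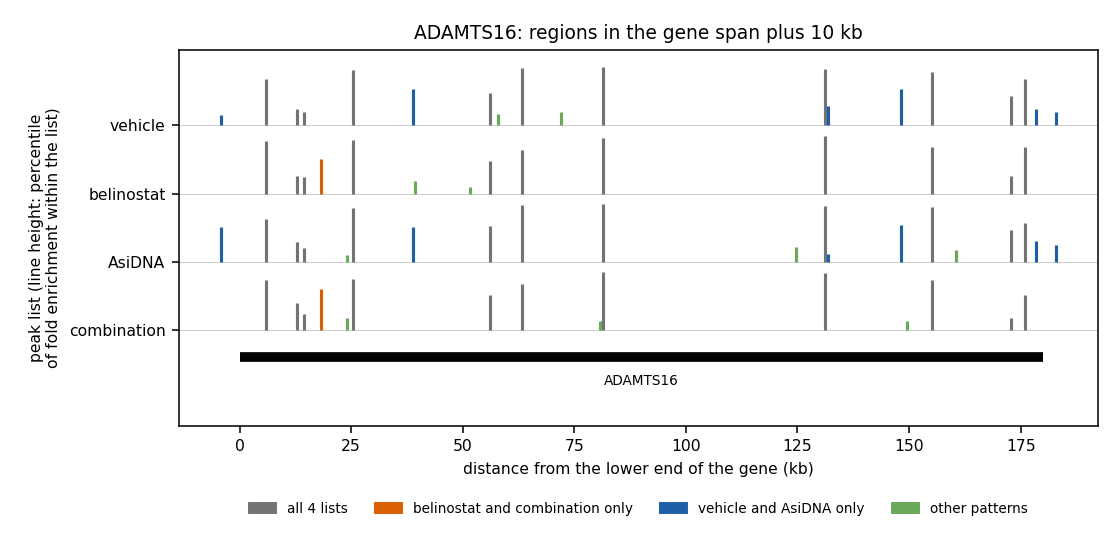
Lines mark the centres of the regions in the ADAMTS16 window (distance from the gene's lower end in kb) in each peak list, and line height gives the within-list percentile of the fold enrichment; the black bar is the gene. Blue lines stand only in the vehicle and AsiDNA rows at 6 places, and the orange line stands only in the belinostat and combination rows, at 1 place.

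Some split regions lay close to another region of any pattern. Within 1000 bp of one were 13 of the 28 gained (46.4%, against 26.3% in all gene windows) and 12 of the 35 lost (34.3%, against 26.5%). In ADAMTS12 a lost region (chr5:33827259-33827675, folds 3.73 and 3.50) and a gained region (chr5:33827877-33828259, folds 6.60 and 5.20) were 201 bp apart.

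Patterns that follow AsiDNA were rare. AsiDNA and combination without vehicle and belinostat held 6 regions (1.04%, background 1.09%), and the reverse held 3 (0.519%, background 0.789%). Of the 6, 5 were in ADAMTS windows (1.73% of their 289 regions, 0.741 to 3.99, background 1.09%). None of the 9 had percentiles of 50 or more, against 0.571% and 0.338% of regions with these patterns in all gene windows. The strongest lay upstream of ADAMTS6 (chr5:65483793-65484025, folds 4.09 and 4.37). On the vehicle and belinostat side it was 1 of the MMP8 window (chr11:102733377-102733730, folds 3.31 and 4.17). The member shares of 1.04% and 0.519% lie near their backgrounds. Patterns that follow neither drug were as rare, with 6 regions of belinostat and AsiDNA only (1.04%, background 1.29%) and 5 of vehicle and combination only (0.865%, background 0.592%). The strongest of these lay in ADAM9 (chr8:39086132-39086411, folds 4.40 and 5.84) and ADAMTS14 (chr10:70758748-70759413, folds 4.73 and 5.51).

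Regions of 1 list were commonest for belinostat, with 37 (6.40%, background 6.33%), then AsiDNA with 30 (5.19%, 6.20%), vehicle with 28 (4.84%, 4.01%) and combination with 27 (4.67%, 3.99%). Of the 30 AsiDNA-only regions, 3 were at percentile 50 or above (10%, against 2.78% of such regions in all gene windows). No region of vehicle, belinostat or combination alone was, against 1.13%, 1.38% and 0.847% in all gene windows. The 3 AsiDNA-only regions lay in ADAM22 (chr7:88197507-88197831, fold 8.87), ADAMTS12 (chr5:33636957-33637336, fold 7.24) and ADAM10 (chr15:58738118-58738340, fold 6.31). The strongest of belinostat alone was beside MMP8 (chr11:102734683-102734967, fold 5.33), of vehicle alone in ADAM10 (chr15:58721180-58721379, fold 4.73), and of the combination alone in ADAMTS12 (chr5:33817343-33817756, fold 5.54).

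Of patterns with 3 lists, all but vehicle was the most frequent, with 24 regions (4.15%, background 3.61%). The strongest lay in ADAMTS5 (chr21:26920059-26920506), with folds of 10.4 in belinostat, 6.77 in AsiDNA and 8.08 in the combination. Next came the MMP3 region described above (chr11:102836319-102836685) and one in ADAMTS3 (chr4:72303026-72303515, folds 6.49, 5.37 and 6.23). All but combination held 17 regions (2.94%, background 2.11%), led by ADAMTS18 (chr16:77330318-77330779, folds 4.97, 7.93 and 6.54). All but AsiDNA held 16 (2.77%, background 1.99%), led by MMP28 (chr17:35799841-35800444, folds 4.71, 8.01 and 7.93), which codes for epilysin. The pattern of all but belinostat held 13 (2.25%, background 2.35%), led by ADAMTS6 (chr5:65160149-65160413, folds 5.83, 7.48 and 5.54).

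By pairs of lists, 99 of the 440 belinostat peaks in the windows overlapped no vehicle peak (22.5%, background 22.7%), and 83 of the 424 vehicle peaks overlapped no belinostat peak (19.6%, 16.1 to 23.6, background 16.8%). For AsiDNA and vehicle the counts were 66 gained (15.0%, background 16.1%) and 52 lost (12.3%, background 10.4%). For the combination and vehicle they were 88 gained (20.5%, background 20.1%) and 86 lost (20.3%, 16.7 to 24.4, background 16.7%). These 3 comparisons share the vehicle list. The combination against AsiDNA gave 78 gained (18.2%, background 17.2%) and 91 lost (20.7%, background 19.2%), and against belinostat 51 gained (11.9%, background 10.9%) and 64 lost (14.5%, background 13.7%). In the belinostat list, the gained peaks had a median percentile of 23.2 and the peaks shared with vehicle 60.8.

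The cluster of 9 MMP genes on chromosome 11 (chr11:102520508-102955732), which holds MMP7, MMP20, MMP27, MMP8, MMP10, MMP1, MMP3, MMP12 and MMP13, spans 435 kb. An end was open in all lists at 5 of them, MMP7, MMP20, MMP10, MMP1 and MMP3, and in no list at MMP27, MMP8, MMP12 and MMP13. Of its 32 regions 16 were in all lists (50.0%, background 54.5%), 2 were gained with belinostat (6.25%, background 6.27%) and 5 were lost (15.6%, 6.86 to 31.8, background 4.86%). These regions are part of the MMP counts above. The gains were chr11:102781786-102782013, between MMP10 and MMP1 (folds 5.33 and 4.62), and chr11:102950436-102950827, within MMP13 (4.17 and 4.62). Of the losses, 3 lay within MMP20, 1 beside MMP10 and 1 between MMP3 and MMP12. The strongest shared regions were at and near MMP3, at chr11:102843310-102843937 (folds 13.2, 15.6, 19.1 and 18.0) and chr11:102851204-102851797 (13.0, 19.4, 14.9 and 17.8).

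**Figure D5:**
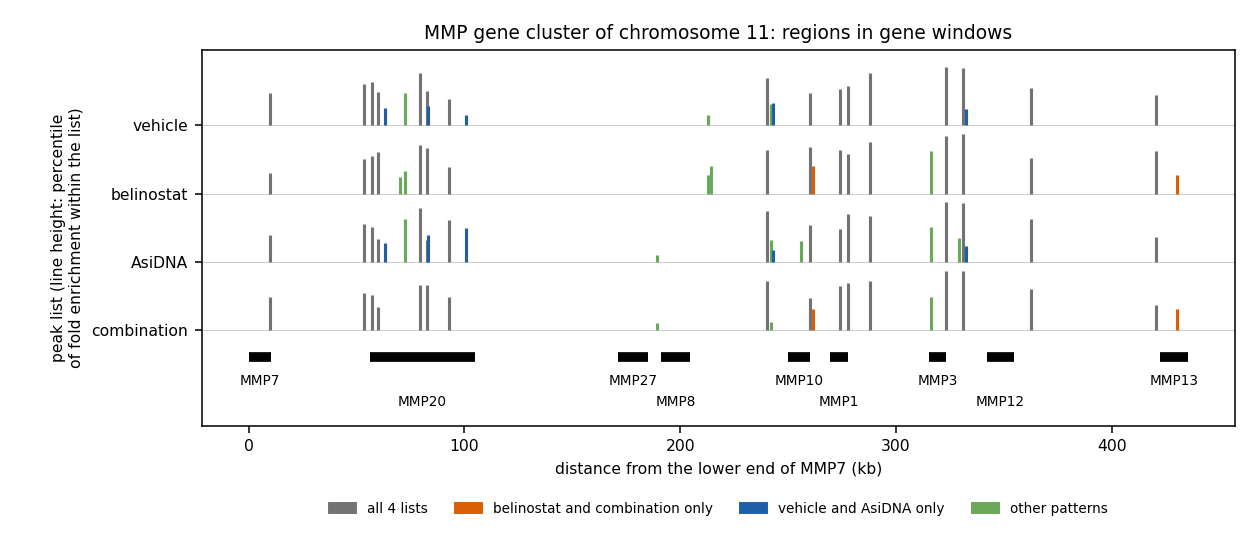
Lines mark the centres of the 32 regions in the windows of the chromosome 11 MMP cluster (distance from the lower end of MMP7 in kb) in each peak list, and line height gives the within-list percentile of the fold enrichment; black bars are the genes. Grey lines, present in all 4 rows, number 16; the tallest stand at and near MMP3, and no grey line stands at MMP27 or MMP8.

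Genes around the proteases were read in the same way at their ends, from lists that hold no member. Over all protein-coding genes 64.1% were open in all lists, 27.4% in none and 8.47% in some, and lists this short were not compared with these shares by a test. Of 8 inhibitors, 5 were open in all lists and 3 in some. TIMP3, the TIMP that is bound to the matrix, had an end peak in all but vehicle (percentiles 25.5, 0.448 and 20.6), A2M in belinostat only (2.79) and PZP in vehicle only (10.0). Among 13 activators and surface partners, 8 were open in all lists, 2 in none and 3 in some. FURIN, the convertase that activates MMP11, MMP14 and many ADAMs, had end peaks in all but AsiDNA within the window, and its merged region was open in all lists. ITGB3 had one in all but belinostat and LCN2, a partner of MMP9, in belinostat only. Of 9 genes for ADAM10 and ADAM17 maturation, 7 were open in all lists and 2 in none.

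Of 20 substrates of membrane shedding, 16 were open in all lists, 2 in none, and EPGN (all but AsiDNA) and TNF (belinostat only) in some. Matrix substrates were open in all lists at 8 of 16 genes and in none at 6, with COL3A1 in belinostat only and COL4A2 in the combination only. Of 10 relatives outside the naming rule, 1 was open in all lists and 7 in none, while ADAMTSL5 was open in all but combination and THSD4 in AsiDNA only.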

How the data were processed

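NicE-seq peak lists of 16 U87 libraries (4 groups of 4, 1 list per group) were analysed. The submitters' processing notes name hg38, MACS2, Bowtie2, Trim Galore 0.5.0, SAMtools, Picard and deepTools. Tool options, any control input and the pooling of libraries were not given in the sources used here. In the deposited lists each peak has a fold enrichment, which is a ratio over local background, and a q-value on the −log10 scale. None is scaled between lists, and read depth is unknown, so a longer list can reflect more reads.

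Peaks on chromosomes 1 to 22 and X were merged at an overlap of 1 bp or more, and a region's pattern is the set of lists with a peak in it. Genes came from a GRCh38.p14 table with ends and no exons, so location within exons or introns is not given, and 36 members had a strand from RefSeq promoters. The members, gene lists and settings were chosen with earlier results of these data known. Genes named with values were all members whose end differed between lists, the 3 strongest regions per pattern (ranked by the lowest percentile among the lists with a peak), the 5 members with most regions, the 5 with most regions not in all lists, the 2 strongest ends per role and the listed pathway genes whose end differed; others were named after their values were seen. The planned split of ADAMs by a protein motif was replaced by general knowledge, since no protein sequences were used. Shares have Wilson 95% intervals. Settings varied were the end window (500 and 2000 bp), the flank (0, 5 and 20 kb), −log10 q of 5, lists of equal length, summits within 250 bp, overlap of 50%, percentile 50, merged regions, a margin and starts alone. In a test on simulated data, 100% of 20000 regions got their known pattern back. The simulated regions lay far apart and their peaks always overlapped, so this checked the code and not closely spaced peaks or shifted borders. Python 3.11.15, numpy 2.4.6, pandas 2.3.3, scipy 1.17.1 and matplotlib 3.10.9 were used.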

Additional observations from a re-analysis of the deposited data

Results flagged for a closer look

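In 11 member regions belinostat went with opposite changes on the AsiDNA and DMSO backgrounds, as read from which lists held a peak. This difference was not tested, since there is 1 list per group. Values below are the lower of the 2 within-list percentiles of fold enrichment. Held by vehicle and combination only were regions of ADAMTS14 at chr10:70693843-70694301 (18.7) and chr10:70758748-70759413 (34.2), the ADAM20 window (10.0), ADAM10 (6.43) and the ADAMTS2 window (1.55), so that a peak was absent with either drug alone. Held by belinostat and AsiDNA only were regions of ADAM9 (27.8), MMP16 (20.3), ADAMTS3 (14.8), the MMP11 window (3.24), ADAMTS12 (1.12) and ADAMTS2 (0.610), so that a peak was present with either drug alone and absent without drug and with both. None reached percentile 50. In all gene windows these patterns held 0.592% and 1.29% of regions, and in member windows 0.865% (5 regions) and 1.04% (6 regions).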

How the results depend on the processing

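No paired analysis was possible because each group has 1 peak list for its 4 libraries, and the library numbers in the titles belong to no list of their own. For the same reason no library could be left out. Of the counts over all members and over MMP genes under the alternatives, 107 stayed within 1.5 times their value and 17 did not, and for the named ends and regions 178 kept their pattern and 49 did not. At gene ends, members open in some lists numbered 7 with −log10 q of at least 5, 2 by merged regions (ADAMTS9 and MMP11), and 1 with a margin between present and absent (ADAMTS8). The 7 include ADAM8, ADAM12, MMP2 and MMP17, which were open in all lists under the main setting. Within 2000 bp, ADAMTS8, ADAMTS9, MMP11 and MMP25 were all open in every list, but 5 other members were then open in some lists only. Within 500 bp, 3 members were open in some lists only. With starts alone, 17 of the 36 members with a known start were open in all lists. ADAM8, ADAMTS10, ADAMTS13 and MMP20 were open in all lists at a gene end but not at the start. With percentile 50 or more, which keeps fewer regions by construction, 160 regions were in all lists, 1 was gained and 5 were lost with belinostat, and 0 had any of the other 4 patterns of 2 lists; in MMP windows 0 were gained and 1 was lost. The pattern of vehicle and belinostat only held 1 region with −log10 q of at least 5 and 1 within the gene span alone, and vehicle and combination only held 11 with lists of equal length. MMP gains numbered 6 within the gene span alone, and MMP losses ranged from 10 to 17 over all alternatives but percentile 50. The counts of gained and lost peaks by pairs stayed within 1.5 times under each alternative tried. Depth is unknown, so a missing peak can be a peak below the threshold of its list.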
